A study of Mus musculus with 12 samples.

Results

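Replication-dependent histone genes encode the bulk of the histone protein that packages new DNA, and 57 of the 12199 genes in the count table from mouse bone marrow (BM) belong to them. They were chosen by symbol alone, as every gene whose name begins with Hist1h, Hist2h, Hist3h or Hist4h. By class, 6 encode the linker histone H1, 13 encode H2a, 16 encode H2b, 10 encode H3 and 12 encode H4. By position, 47 lie in the Hist1 cluster on chromosome 13, 6 in Hist2 on chromosome 3, 3 in Hist3 on chromosome 11 and 1, Hist4h4, alone on chromosome 6. The H2b class includes Hist3h2bb-ps, whose symbol marks it as a pseudogene. All 57 passed the filter on low counts.

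These genes are transcribed mainly in S phase, when a cell copies its DNA, and most have no intron. Their mRNA usually ends not in a poly(A) tail but in a short stem-loop bound by the protein SLBP, and it is degraded when replication stops. Histone variants such as H3.3 and H2A.Z are encoded by other genes, with ordinary polyadenylated mRNA, and are made throughout the cell cycle. BM holds many dividing progenitors, above all early erythroid and granulocytic cells, beside mature cells that no longer divide.

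The study compared wild-type (WT) C57BL/6 mice with 3 mutant genotypes that share an internal tandem duplication in 1 allele of the receptor tyrosine kinase gene Flt3 (Flt3ITD/+). DF mice additionally carried Dnmt3aFlox/+ with MxCre, TF mice carried Tet2+/-, and TFD mice carried both Tet2+/- and Dnmt3aFlox/+ with MxCre. Dnmt3a encodes a DNA methyltransferase and Tet2 an enzyme that oxidizes methylated cytosine. MxCre is driven by an interferon-inducible promoter and acts in many cell types, whereas the Tet2 and Flt3 alleles are germline. Animals of all genotypes, WT included, received poly(I:C), which induces MxCre, at 8 to 10 weeks of age. Hematopoietic analysis followed 8 to 9 weeks later, and per the study the sequenced RNA came from marrow examined in that work. The labels of TF and WT name no MxCre. Total RNA was sequenced from BM, which the labels give as mononuclear cells and the study's methods as whole BM cells, in 3 WT, 3 DF, 3 TF and 2 TFD libraries, and a further TFD sample was not analysed here. The labels do not say that each library is a separate animal, so p-values measure the spread between these libraries.

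Total counts ranged from 8274153 to 15900904 per library, of which histone genes took from 1.02% in TFD replicate 2 to 2.20% in TF replicate 2. Libraries with many Xist counts (30976 to 42152 against 18 to 538 elsewhere) were WT replicate 3, TF replicate 3 and TFD replicate 2. TFD replicate 2 stood apart for histone mRNA. It held the lowest level of 45 of the 57 genes, against 11.5% of all genes tested, and TF replicate 2 held the highest level of 43, against 6.26%. The calls at an adjusted p under 0.05 and the medians over all 57 genes in comparisons with TFD are therefore also given without TFD replicate 2. Other TFD values rest on both libraries, among them counts at an unadjusted p, from DESeq2 and of groups without overlap. Markers of BM cell types also differed. The summed level of 15 erythroid genes was 2986 to 3733 CPM (counts scaled by library size with TMM factors) in WT, 381 to 524 in DF, 846 to 2636 in TF and 788 to 1055 in TFD. TF replicate 3, at 2636, stood apart from TF replicates 1 and 2 at 846 and 1091. Of 11 genes of developing B cells 10 passed the filter on low counts, and all 10 fell in each mutant. The sum of the list went from 510 to 619 CPM in WT to between 16.1 and 71.9 CPM in the mutants, the highest again in TF replicate 3. Rag1 and Pax5 were at 0 counts in at least 1 DF and 1 TFD library. Of 8 monocyte genes 7 rose in DF (median 1.46), 7 in TF (median 1.33) and 5 in TFD (median 1.51). Of 4 early granulocyte genes 4 rose in DF (median 0.99), 1 in TF and 2 in TFD, and of 8 late neutrophil genes 0, 3 and 1 fell. Of all genes tested 21%, 19% and 14.7% were called higher than in WT in DF, TF and TFD, and 16.6%, 15.6% and 11.6% lower. The late neutrophil share called lower in TFD (12.5%) was near that of all genes. The part of cell composition in the results was not tested, and in bulk BM fewer cells of a type and less RNA per cell cannot be told apart.

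The stem-loops are shown first, because they set how these mRNAs end and so which RNA libraries can hold them. In GENCODE M21 transcripts (build GRCm38, the same as mm10), the histone 3′ stem-loop pattern, 16 bases searched on the transcript strand, was present in 39 of the 57 genes. For 10 genes the annotated transcript starts with ATG, consists of whole codons and ends in a stop codon, and 0 of them held the pattern. Of the other 47 genes 39 held it, and how far their transcripts run past the stop codon was not checked. Among 141707 transcripts of other genes 0.93% held it. The most frequent form, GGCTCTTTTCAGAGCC, was shared by 20 genes, and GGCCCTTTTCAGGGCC and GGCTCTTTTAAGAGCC were carried by 6 genes each. Capitals mark the pattern in genes of each class, chosen to show the forms that differ in the stem or loop.
Hist1h1c: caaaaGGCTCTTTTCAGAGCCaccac
Hist3h2a: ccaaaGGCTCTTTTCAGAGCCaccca
Hist2h2ac: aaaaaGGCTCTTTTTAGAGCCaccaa
Hist3h2ba: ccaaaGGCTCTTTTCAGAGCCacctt
Hist1h2bb: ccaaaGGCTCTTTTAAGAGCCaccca
Hist1h3b: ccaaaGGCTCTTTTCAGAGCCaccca
Hist1h3c: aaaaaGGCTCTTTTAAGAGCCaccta
Hist1h3g: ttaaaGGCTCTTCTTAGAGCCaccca
Hist1h4d: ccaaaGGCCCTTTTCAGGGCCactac
Hist1h4b: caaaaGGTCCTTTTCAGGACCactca
Hist2h4: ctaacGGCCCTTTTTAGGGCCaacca
The library kit was one for total RNA, which does not select poly(A) tails. The annotated transcripts of Hist1h2bl and Hist3h2bb-ps, described below, end in a stop codon, and the pattern was not found in them. Whether their mRNAs end in a stem-loop cannot be told from this search.

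Promoters of 51 genes, from 250 bases before to 50 bases after the start (RefSeq, GRCm38.p6), were searched on both strands for 5 short motifs. The TATA motif TATAAA was present in 60.8% of them, against 13.6% of all 32851 promoters of that length, and CCAAT in 84.3% against 37.4%. CCAAT was found in all promoters of the H1, H2a, H2b and H3 genes that were matched and in 27.3% of those of H4. The octamer ATTTGCAT was present in 46.2% of H2a and 38.5% of H2b promoters and in 1.74% of all. GGTCCG was present in 90.9% of H4 promoters and 8.25% of all, and AAACACA in 83.3% of H1 promoters and 7.18% of all. These matches describe letters and not bound sites. Shown with each match in capitals on either strand are the promoters of the highest H1 and H4 genes and of the 2 Hist3 genes that differed between mutants and had a promoter in the table. The Hist3h2a sequence also spans the start of the divergent Hist3h2bb-ps, 173 bases from that of Hist3h2a.
Hist1h1c, chr13:23738557-23738856, plus strand: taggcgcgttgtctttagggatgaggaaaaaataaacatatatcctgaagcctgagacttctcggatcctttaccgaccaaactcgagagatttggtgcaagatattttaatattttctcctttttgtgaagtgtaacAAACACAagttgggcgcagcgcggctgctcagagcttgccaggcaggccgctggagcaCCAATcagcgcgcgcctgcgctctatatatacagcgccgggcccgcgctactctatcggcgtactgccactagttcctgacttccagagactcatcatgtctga
Hist1h4d, chr13:23581318-23581617, plus strand: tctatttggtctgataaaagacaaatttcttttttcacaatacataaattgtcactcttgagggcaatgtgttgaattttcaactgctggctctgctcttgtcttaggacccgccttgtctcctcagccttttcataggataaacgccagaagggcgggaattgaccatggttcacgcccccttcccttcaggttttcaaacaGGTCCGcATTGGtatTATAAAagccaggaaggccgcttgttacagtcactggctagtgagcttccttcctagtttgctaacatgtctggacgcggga
Hist3h2a, chr11:58954435-58954734, plus strand: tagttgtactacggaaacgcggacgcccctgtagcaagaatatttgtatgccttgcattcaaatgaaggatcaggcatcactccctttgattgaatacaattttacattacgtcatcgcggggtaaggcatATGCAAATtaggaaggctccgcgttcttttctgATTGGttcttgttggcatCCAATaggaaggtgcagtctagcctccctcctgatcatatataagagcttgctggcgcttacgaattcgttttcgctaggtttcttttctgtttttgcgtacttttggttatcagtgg
Hist3h2ba, chr11:58948661-58948960, plus strand: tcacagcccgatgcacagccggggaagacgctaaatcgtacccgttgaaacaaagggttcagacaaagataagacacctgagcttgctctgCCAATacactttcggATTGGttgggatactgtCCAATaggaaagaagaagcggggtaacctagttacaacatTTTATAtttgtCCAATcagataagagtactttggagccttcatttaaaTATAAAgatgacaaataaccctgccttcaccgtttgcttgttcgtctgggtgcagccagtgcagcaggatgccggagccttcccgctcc
The Hist3h2a promoter held the octamer and 2 CCAAT matches but no TATAAA, and the Hist3h2ba promoter held 2 TATAAA and 4 CCAAT matches but no octamer.

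Many copies are alike in sequence, which limits what unique alignments can measure. Over the 57 genes, a median of 60.4% of the 100-base windows of the annotated transcripts occurred in no other GENCODE gene (range 8.01% to 100%), and 20 genes were under 50%. H1 genes were the most distinct, with a median of 96.0%, and H2a genes the least, with 46.7%. The exons of the 57 genes overlapped those of no other gene in the table. The genes under 50% were 7 of H2a, 6 of H2b, 5 of H3 and 2 of H4. Values of single genes with few unique windows are therefore uncertain. Examples are Hist1h3h (8.01%), Hist1h2ai (11.6%), Hist1h3b (19.1%), Hist1h2bk (24.1%) and Hist1h4k (35.7%).

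Of the 6 H1 genes, 5 had high levels and Hist1h1t lay far below them. Levels between genes are compared as mean log2 CPM per kilobase over the 11 libraries. Hist1h1c, which encodes the subtype H1.2, was highest at 11.11, followed by Hist1h1e at 10.42, Hist1h1d at 9.95, Hist1h1a at 9.69 and Hist1h1b at 9.22. Hist1h1t, the testis-specific H1, was lowest of all 57 genes at 1.61, with at least 19 counts in every library. In H2a, Hist1h2ak was highest (9.28) and Hist2h2ab lowest (5.53). In H2b, Hist2h2bb (10.90) and Hist1h2bb (10.56) led, and Hist2h2be (2.40) was lowest, followed by Hist3h2ba (4.57). In H3, Hist1h3c (10.07) was highest and Hist2h3b (7.55) lowest. In H4, Hist1h4d (10.81) was highest and Hist1h4i (6.51) lowest.

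**Figure D1:**
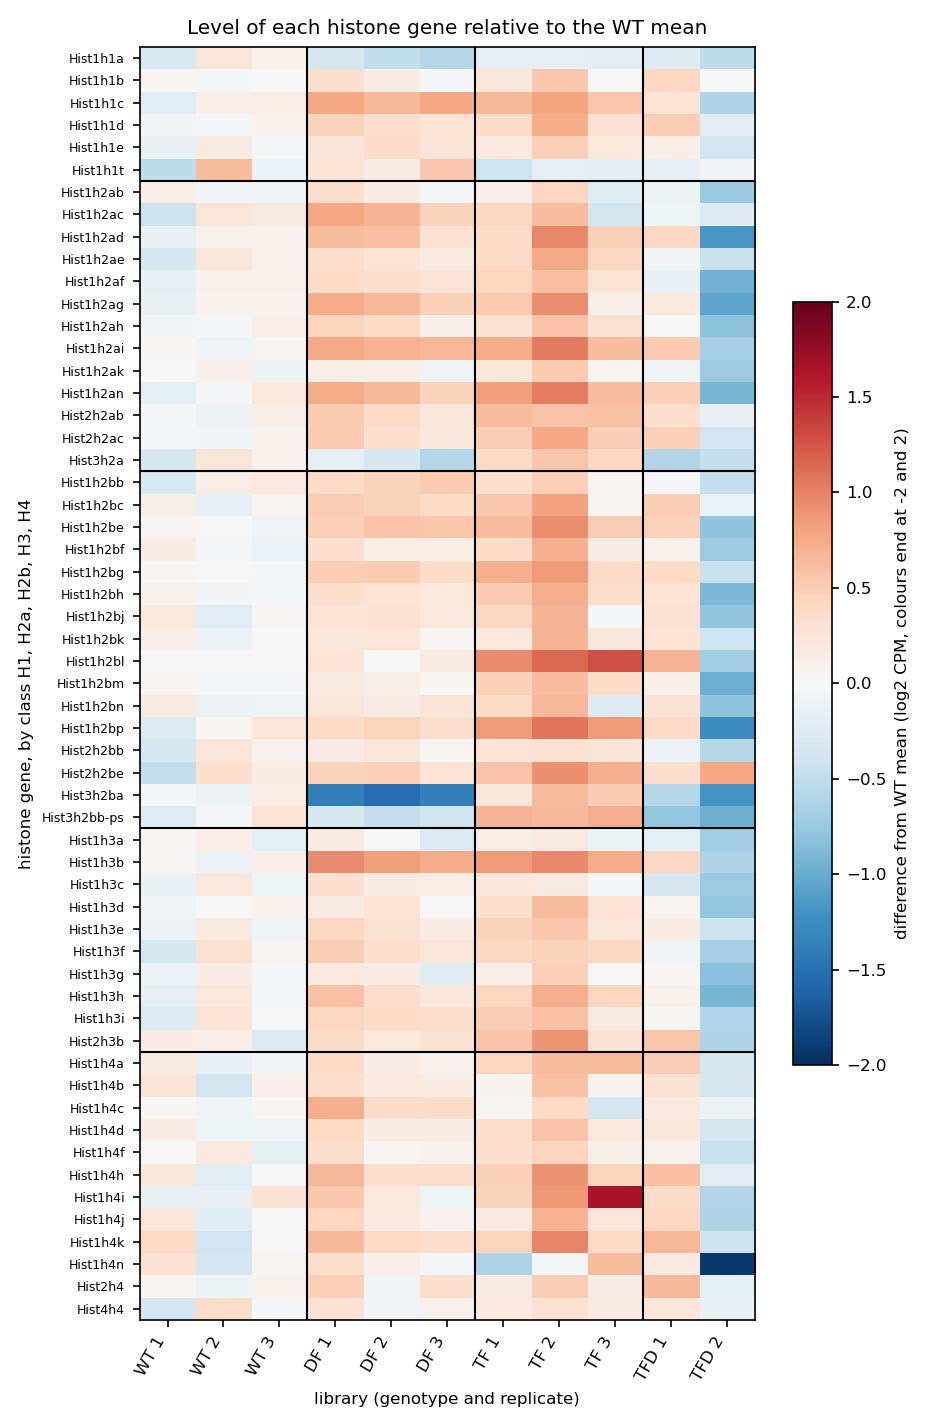
Level of each of the 57 histone genes (rows, by class) in each of the 11 libraries (columns), as log2 CPM minus the mean of the 3 WT libraries of that gene. Most rows are red in DF and TF and blue in TFD replicate 2, while Hist3h2ba, Hist3h2bb-ps and Hist3h2a are blue in DF and TFD and red in TF.

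Summed over each class, histone mRNA was higher in every DF and TF library than in every WT library, in all 5 classes. For H1, the WT libraries measured 3610, 4365 and 4200 CPM. The DF libraries measured 5326, 5040 and 5011 CPM and the TF libraries 5063, 5888 and 4811 CPM. TFD did not hold together, with 4673 CPM in replicate 1, above all WT libraries, and 3089 CPM in replicate 2, below them. Over all 57 genes the WT libraries summed to 13529, 15116 and 14533 CPM, the DF libraries to 18860, 17561 and 16926 CPM and the TF libraries to 18455, 21335 and 16990 CPM. TFD replicate 1 measured 16036 CPM and replicate 2 measured 10095 CPM. When levels were scaled by library totals alone, the DF and WT ranges overlapped in H2a, H3 and H4, and TF stayed above WT in all 5 classes.

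In the core histone classes TFD replicate 1 was above all WT libraries for H2b and H4 and within the WT range for H2a and H3. The ratio of the TF mean to the WT mean was 1.34 for H2a, 1.35 for H2b, 1.30 for H3 and 1.30 for H4, and that of DF to WT was 1.22, 1.22, 1.24 and 1.22. In TFD replicate 2 each class was at 0.592 to 0.661 times its level in replicate 1. Class shares of histone counts moved little between libraries, with H2b between 22.6% and 25.2% H1 between 26.7% and 30.6%, and H4, the widest, between 15.5% and 19.9%. These sums have no test, because they are scores over genes chosen together.

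**Figure D2:**
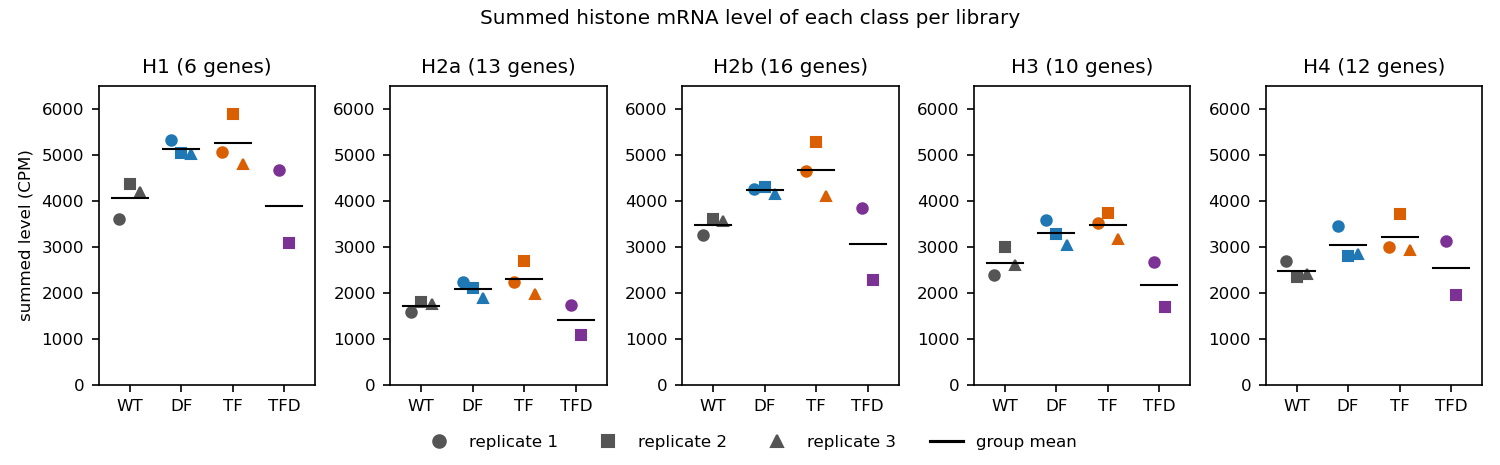
Summed level in CPM of the genes of each histone class (panels) in every library, by genotype, with a line at the group mean. In all 5 classes the DF and TF points lie above the WT points, and the square of TFD replicate 2 lies below every other library.

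DF and WT were compared to ask how heterozygous loss of Dnmt3a with Flt3ITD relates to these mRNAs. Most of the 57 genes had a positive log2 fold change in DF (52 genes), with a median of 0.27 against 0.05 over all genes tested, yet few passed the test. EdgeR's quasi-likelihood test with Benjamini-Hochberg adjustment over 12175 genes called 5 higher and 3 lower, that is 8.77% and 5.26%, against 21% and 16.6% of all genes tested. The histone count moved with the libraries in the fit. Without TFD replicate 1, 18 genes were called higher (22.5% of all genes), without TFD replicate 2, 13 (20.7%), with only DF and WT in the fit, 15 (20.1%), and without WT replicate 1, 1 (16.4%). The genes called lower went from 3 to 1 without DF replicate 2 or without WT replicate 2 (12.1% and 13.2% of all genes). Of the 8 calls, 2 held with every single library left out. The share of histone genes called thus lay below or above that of all genes depending on the fit. With library totals 1926 of all genes were called higher and 2622 lower, in place of 2560 and 2023. In 25 genes all DF libraries lay above all WT libraries (28.9% of all genes tested did so) and in 3 all lay below (22.4%).

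Hist1h3b, an H3 gene, had the largest rise of the 57 genes in DF. It measured 7.88, 7.74 and 7.97 log2 CPM in WT and 8.81, 8.70 and 8.60 in DF, without overlap, which gave 0.84 on the log2 scale (SE 0.19, adjusted p = 0.00503). Hist1h1c measured 10.07, 10.39 and 10.42 in WT and 11.07, 10.95 and 11.07 in DF (0.73, SE 0.19, adjusted p = 0.0100). The other 3 called higher were Hist1h2ai at 0.70, Hist1h2ac at 0.62 and Hist1h4c at 0.50. Among the H1 genes Hist1h1a, which encodes H1.1, went the other way, from 9.21, 9.76 and 9.58 in WT to 9.17, 9.02 and 8.94 in DF (-0.48, SE 0.14, adjusted p = 0.0175). The other genes called lower, Hist3h2ba and Hist3h2bb-ps, are in the Hist3 cluster and are described below.

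TF and WT were compared to ask the same of heterozygous loss of Tet2 with Flt3ITD. Here 55 of 57 genes had a positive log2 fold change, with a median of 0.42 against 0.02 over all genes tested. The test called 18 higher and 0 lower, that is 31.6% of the histone genes against 19% of all genes tested higher, and 0 against 15.6% lower. At an unadjusted p under 0.05, 35 were higher and 0 lower (24% and 21.3% of all genes), and DESeq2 called 24 higher and 0 lower (18.3% and 17.6%). All TF libraries lay above all WT libraries in 36 genes and below in 0, against 26.1% and 22.9% of all genes tested. The calls comprised 2 H1, 6 H2a, 6 H2b, 1 H3 and 3 H4 genes, with 13 of them in Hist1, 3 in Hist2 and 2 in Hist3.

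Hist1h2bl, an H2b gene, had the largest change in TF. Its 3 WT libraries measured 6.64, 6.64 and 6.66 log2 CPM, and its TF libraries measured 7.58, 7.80 and 7.94. The log2 fold change was 1.13 (SE 0.24, adjusted p = 0.00343), and only 37.9% of its 100-base windows are unique. Hist1h4i, the lowest H4 gene, followed with 1.06 (SE 0.30, adjusted p = 0.0156), where TF replicate 3 at 6.53 stood above replicates 1 and 2 at 5.34 and 5.76. Hist1h3b rose by nearly the same amount as in DF, at 0.85 (SE 0.19, adjusted p = 0.00517), and Hist1h1c rose by 0.66 (SE 0.19, adjusted p = 0.0178). Hist1h1d, which encodes H1.3, passed narrowly at 0.48 (adjusted p = 0.0481), and Hist1h1a was not called, at -0.22 (adjusted p = 0.251).

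The Hist2 genes split in TF. Hist2h2be was called at 0.71 (adjusted p = 0.0147), Hist2h2ac at 0.59 (adjusted p = 0.0211) and Hist2h2ab at 0.59 (adjusted p = 0.00754). Hist2h3b at 0.59 (adjusted p = 0.0674), Hist2h4 at 0.27 (adjusted p = 0.289) and Hist2h2bb at 0.26 (adjusted p = 0.230) were not called. Hist4h4, the isolated H4 gene, was not called in any of the 6 comparisons, with log2 fold changes from -0.12 to 0.20.

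TF replicate 2 decided much of the count. Without it 6 histone genes were called higher in TF, against 15.2% of all genes, and the median was 0.33. Without TFD replicate 1 or 2, which changes the estimate of spread, 35 were called in each case, against 20.0% and 19.7%. Without WT replicate 1 there were 8, against 16.5%. Of the 18 genes, 5 were called whichever single library was left out and 3 in every other setting, and with a trend on gene length removed 4 were called, with a median of 0.08.

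TFD and WT were compared to ask how the triple genotype differs from WT. No histone gene was called higher and 4 were called lower, against 14.7% and 11.6% of all genes tested, and the median was -0.16 against 0.01. At an unadjusted p under 0.05, 1 was higher and 7 lower (20.5% and 17.6% of all genes), and DESeq2 called 0 higher and 7 lower (14.3% and 13.4%). These counts rest on both TFD libraries, and without TFD replicate 2 the median changed sign, to 0.22. All TFD libraries lay above WT in 1 gene and below in 6, against 26% and 23.4%. The genes called lower were Hist3h2bb-ps (-0.88, adjusted p = 0.00188), Hist3h2ba (-0.84, adjusted p = 0.00800), Hist3h2a (-0.54, adjusted p = 0.0252) and Hist1h3c (-0.52, adjusted p = 0.0271). Hist1h3c, the highest H3 gene, measured 8.89, 9.23 and 8.94 log2 CPM in WT and 8.68 and 8.30 in TFD, all below WT.

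The direction of the TFD result rested on a single library. Without TFD replicate 2 the median over the 57 genes was 0.22, with 4 called higher and 1, Hist3h2bb-ps, lower, against 12.0% and 7.68% of all genes. Without TFD replicate 1 it was -0.61, with 0 higher and 26 lower, against 10.9% and 8.52%. Of the 57 genes, 54 were lower in replicate 2 than in replicate 1, by a median of 0.80 on the log2 scale, while the median over all genes tested was -0.01. Among other genes, 8 of 8 late neutrophil markers were lower in replicate 2 (median -0.90), as were 14 of 15 erythroid (median -0.72), 3 of 4 early granulocyte (median -0.58) and 5 of 5 megakaryocyte genes (median -1.73). DNA replication genes (median 0.06) and mitosis genes (median 0.08) did not share the fall, nor did developing B genes (2 of 10 lower, median 0.76), and monocyte genes had 5 of 8 lower (median -0.16). The part of these cells in the histone values was not tested. Hist1h4n varied the most, at 6.54 log2 CPM in TFD replicate 1 and 4.43 in replicate 2, and was not called in TFD versus WT (-0.54, adjusted p = 0.419).

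**Figure D3:**
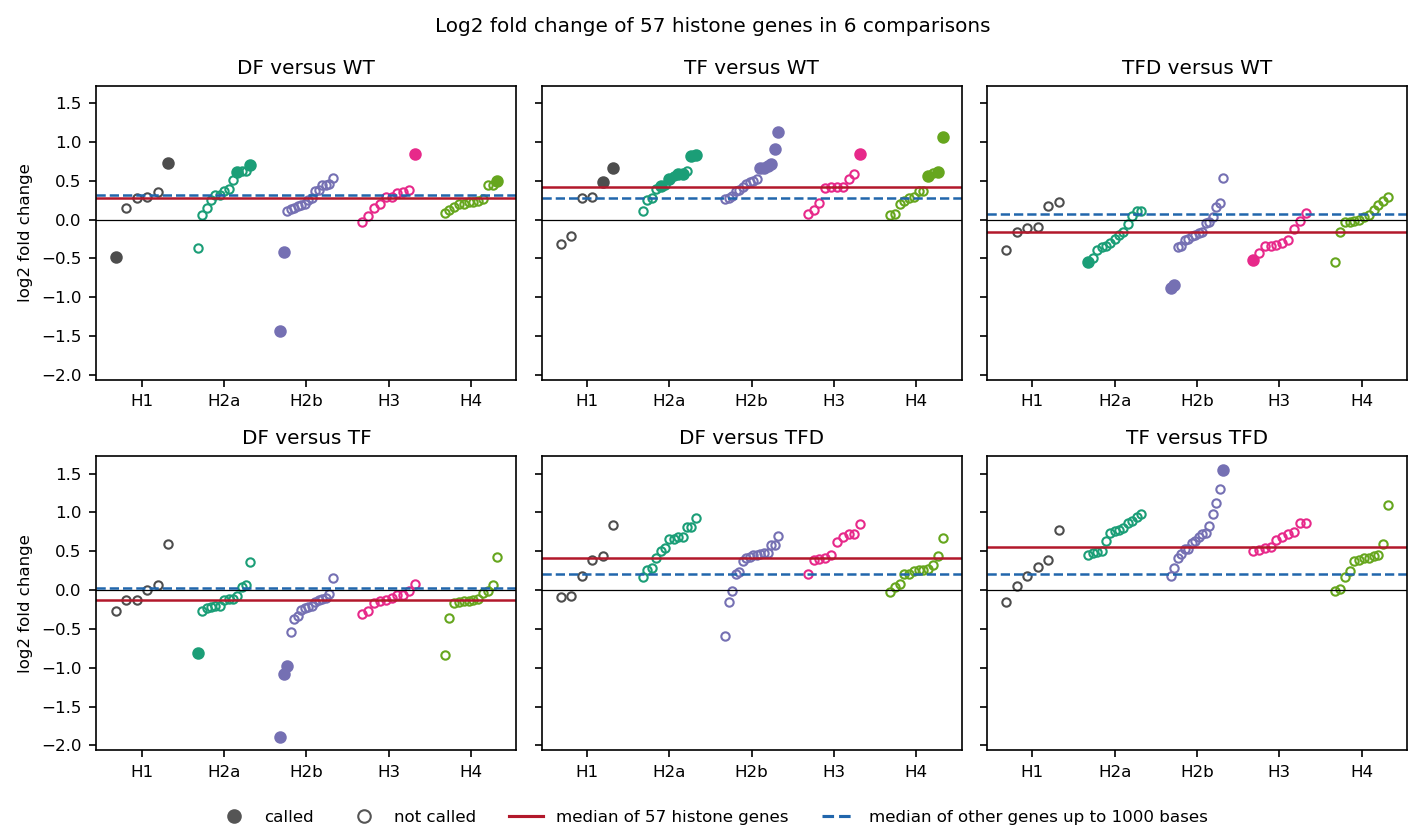
Log2 fold change of each of the 57 histone genes by class in the 6 comparisons, filled where called at an adjusted p under 0.05. The red line is their median and the dashed blue line the median of 936 other genes of at most 1000 bases; the lines lie close together in DF versus WT, at 0.27 and 0.32, and apart in TF versus TFD, at 0.56 and 0.20.

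The mutant genotypes were compared with each other to ask where they differ. In DF versus TF, 0 histone genes were called higher and 4 lower, against 1.67% and 4.27% of all genes tested, with a median of -0.13 against 0.02. At an unadjusted p under 0.05, 1 was higher and 5 lower (8.69% and 10.3% of all genes), and DESeq2 called 0 higher and 5 lower (2.7% and 6.1%). All DF libraries lay above TF in 1 gene and below in 14, against 13.7% and 12.1%. The 4 were all 3 genes of the Hist3 cluster and Hist1h2bl. In DF versus TFD, 0 were called in either direction, as were 0 of all 12175 genes (0%), although 24 were higher and 1 lower at an unadjusted p under 0.05 (7.24% and 6.95% of all genes) and DESeq2 called 6 higher and 0 lower (0.846% and 1.27%). In 22 genes DF lay above TFD without overlap and in 1 below, against 14.9% and 14.1%. In TF versus TFD, only Hist3h2bb-ps was called, higher in TF, against 0.00821% of all genes, while 39 were higher and 0 lower at an unadjusted p under 0.05 (5.7% and 3.07% of all genes), and DESeq2 called 16 higher and 0 lower (0.895% and 0.181%). In 32 genes TF lay above TFD without overlap and in 1 below, against 12% and 10.3%. All these counts against TFD rest on both of its libraries. Without TFD replicate 2 the median was 0.25 for TF versus TFD and 0.05 for DF versus TFD, in place of 0.56 and 0.41.

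Across these genes TF stood above TFD in 55 of 57, with a median log2 fold change of 0.56 against 0.00 over all genes tested, and DF stood above TFD in 51, with a median of 0.41. By class the TF versus TFD median was 0.77 in H2a, 0.66 in H2b, 0.66 in H3, 0.40 in H4 and 0.24 in H1. These values share the 2 TFD libraries. Without TFD replicate 2 the medians fell to 0.25 for TF versus TFD and 0.05 for DF versus TFD, with 1 and 0 genes called higher, against 0.0164% and 0% of all genes. Without TFD replicate 1 they were 1.01 and 0.85, with 23 and 25 genes called higher, against 0.493% and 1.95%.

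The 3 Hist3 genes lie within chr11:58948911-58955192 and had negative log2 fold changes in DF versus WT (median -0.41), where the medians of Hist1 and Hist2 were 0.28 and 0.33. In TF versus WT the medians of Hist3, Hist1 and Hist2 were 0.46, 0.42 and 0.59, and the difference between clusters has no test. Hist3h2ba, an H2b gene at chr11:58948911-58949372 on the plus strand, had the largest difference between mutants. It measured 3.85, 3.77 and 4.003 log2 CPM in WT, and 2.50, 2.35 and 2.50 in DF. It measured 4.11, 4.50 and 4.38 in TF, and 3.31 and 2.69 in TFD. So every DF library was below every other library, every TF library was above all others, and both TFD libraries lay between DF and WT. The log2 fold change was -1.43 in DF versus WT (SE 0.18, adjusted p = 9.4e-05) and -1.89 in DF versus TF (SE 0.18, adjusted p = 0.000765). In TF versus WT it was 0.46 (adjusted p = 0.0525), which missed the threshold.

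Hist3h2bb-ps, at chr11:58954048-58954512 on the minus strand, was lowest in TFD and not in DF. It measured 4.03, 4.22 and 4.54 in WT and 3.95, 3.79 and 3.87 in DF. It measured 4.94, 4.91 and 4.99 in TF, and 3.50 and 3.28 in TFD. The 4 groups did not overlap for this gene. TF exceeded TFD by 1.55 (SE 0.16, adjusted p = 0.00248) and DF versus TF gave -1.08 (SE 0.14, adjusted p = 0.00239). The TF versus TFD call was lost with only those groups in the fit (adjusted p = 0.0591). Against WT it rose in TF by 0.66 (adjusted p = 0.00298) and fell in DF by 0.41 (adjusted p = 0.0362) and in TFD by 0.88 on the log2 scale.

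Hist3h2a, an H2a gene at chr11:58954685-58955192 on the plus strand, measured 7.11, 7.68 and 7.52 in WT and 7.25, 7.11 and 6.87 in DF. It measured 7.83, 7.99 and 7.85 in TF, and 6.84 and 6.98 in TFD. The TF libraries stood above all others and the DF and WT ranges overlapped. It was lower in DF than in TF (-0.81, SE 0.14, adjusted p = 0.00736), higher in TF than in WT (0.44, adjusted p = 0.0307), and not called in TF versus TFD (0.98, adjusted p = 0.0728). From TFD replicate 1 to replicate 2 the 3 Hist3 genes differed by -0.62 to 0.13, with a median of -0.21, against a median of -0.81 for the Hist1 genes. At least 92.9% of the 100-base windows of each are unique.

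Marker lists were also compared between DF and TF. All 15 erythroid genes fell in DF versus WT, with a median of -3.87, 13 fell in TF (median -1.20) and 13 in TFD (median -2.05). In these comparisons 16.6%, 15.6% and 11.6% of all genes were called lower. Of the 15 erythroid genes, 14 were lower in DF than in TF (median -2.76). None of the 15 was at 0 in any library. In DF versus TF all 8 late neutrophil genes (median 0.72) and all 4 early granulocyte genes (median 0.66) had positive log2 fold changes, with 1 of each called, and all 10 developing B genes had negative ones (median -1.32), with 0 called and 6 at an unadjusted p under 0.05. Of all genes 1.67% were called higher and 4.27% lower in DF versus TF. The part of these cells in the Hist3 result was not tested. Of 8 other genes within 200000 bases of Hist3, a list made after values were seen, 3 fell and 0 rose in DF and in TF, and 3 fell and 1 rose in TFD, against 16.6%, 15.6% and 11.6% of all genes called lower. The gene that rose, Gm1821, had 793 counts in TFD replicate 1 and 12 in replicate 2, against 4 to 18 in WT.

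Hist1h2bl, at chr13:21715713-21716143 on the minus strand, was the other gene that differed between DF and TF. Its DF libraries, at 6.92, 6.66 and 6.82, were close to WT and below the TF libraries (-0.98, SE 0.24, adjusted p = 0.0335). The TFD libraries stood far apart at 7.33 and 5.97. Its divergent neighbour Hist1h2ai, whose start is 269 bases away, had a log2 fold change of -0.12 in DF versus TF and of 0.81 in TF versus WT. Only 11.6% of the 100-base windows of Hist1h2ai are unique.

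**Figure D4:**
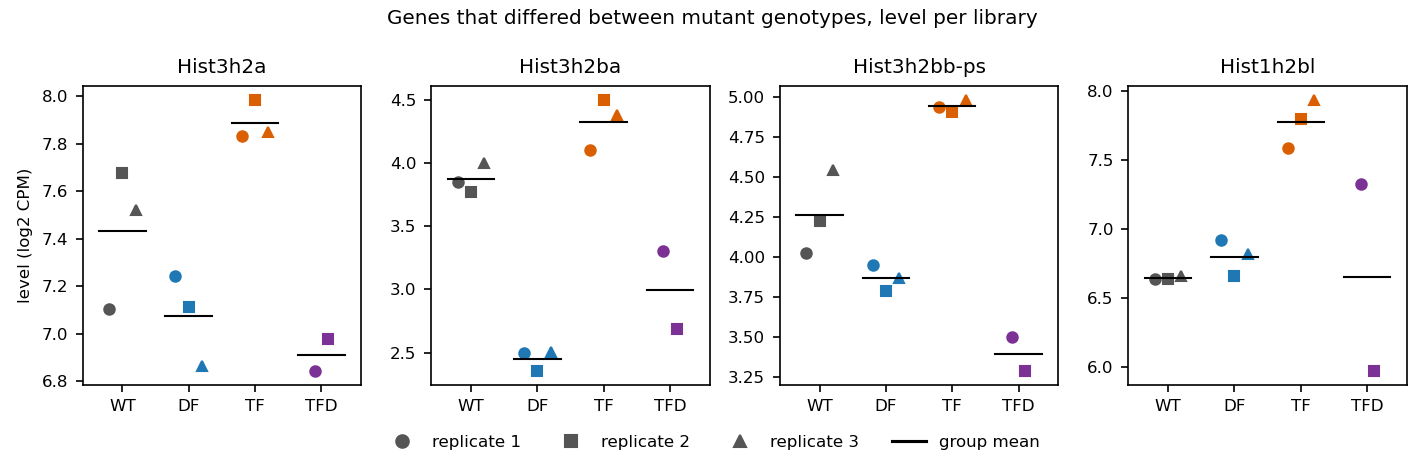
Level in log2 CPM of the 4 histone genes called between mutant genotypes, by library and genotype, with a line at the group mean and a separate axis for each gene. TF lies highest for all 4 genes, and for Hist3h2ba the DF libraries, at 2.35 to 2.50, lie below all others.

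Divergent pairs were common, with 10 pairs of an H2a and an H2b gene whose starts lie at most 500 bases apart. In TF versus WT both genes of each pair had positive log2 fold changes, from 0.25 for Hist1h2ac to 1.13 for Hist1h2bl. In DF versus TF the pair Hist3h2a and Hist3h2bb-ps was the only one in which both were called. Hist2h2be, an H2b gene, was not called in TFD, at 3.71 and 4.14 log2 CPM against 2.91, 3.70 and 3.52 in WT (0.54, adjusted p = 0.0899), the largest value of the 57 genes in that comparison.

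Histone genes are short, and their values were set beside those of other short genes. The median length in the table was 483 bases for histone genes (312 to 2618) and 2890 bases for all genes, 55 of the 57 are at most 1000 bases long and 53 have 1 exon. Among 936 other genes of at most 1000 bases, the median log2 fold change against WT was 0.32 for DF, 0.28 for TF and 0.07 for TFD. Of them 31.1% were called higher in DF and 28.2% in TF, against 8.77% and 31.6% of the histone genes, where the DF share is the one that moved with the libraries in the fit (5 genes called, or 15 with only DF and WT). Other genes with 1 exon had medians of 0.21, 0.10 and 0.16. The histone median of 0.27 in DF lay below that of other short genes, and that of 0.42 in TF lay above it, a difference that has no test. In TF replicate 3 alone the medians from the WT mean were level, at 0.281 for histone and 0.285 for other short genes.

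When a smooth trend on gene length was removed in each library, the histone median against WT was 0.02 for DF, 0.08 for TF and -0.19 for TFD. The calls were then 2 higher and 4 lower in DF, 4 higher and 1 lower in TF, and 0 higher and 7 lower in TFD. Of all genes, the same setting called 21.7% higher and 14.3% lower in DF, 17.5% and 15.7% in TF, and 15.2% and 12.1% in TFD. Between mutants the medians were -0.05 in DF versus TF, 0.19 in DF versus TFD and 0.24 in TF versus TFD, with 4 lower, 0 and 1 higher called, against 4.13%, 0% and 0.00821% of all genes. Hist1h3b remained called in DF and TF, as did Hist1h2bl in TF, and the Hist3 calls in DF versus TF and TF versus TFD remained as well. The calls of Hist1h4i and Hist3h2a in TF versus WT were among those lost. Other short genes were also lower in TFD replicate 2 than in replicate 1, in 653 of 936 and by a median of -0.21, against -0.80 for the histone genes. Their medians from the WT mean were 0.20 in replicate 1 and -0.04 in replicate 2, against 0.23 and -0.60 for the histone genes.

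**Figure D5:**
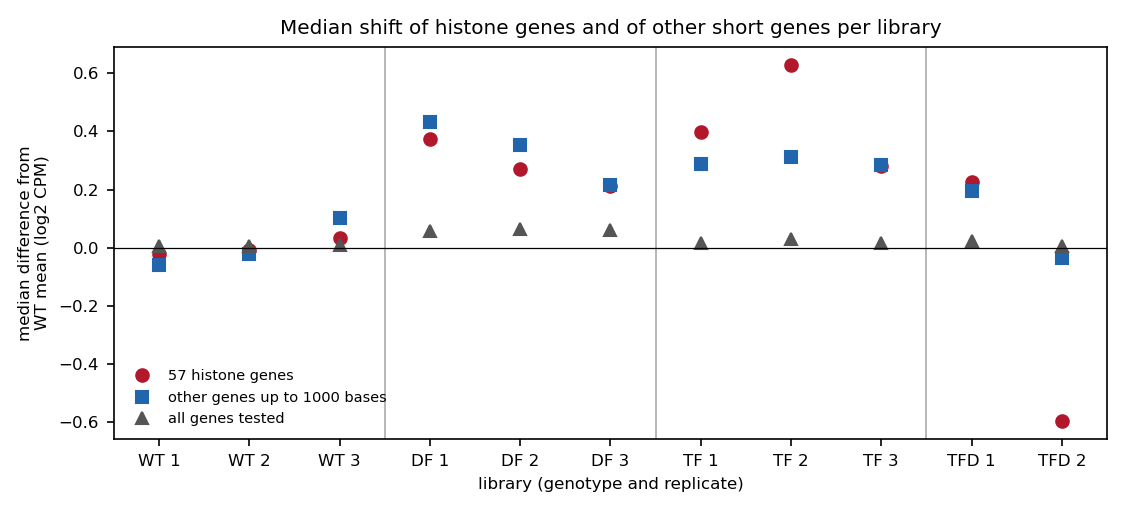
Median difference from the WT mean, in log2 CPM, of the 57 histone genes, of 936 other genes of at most 1000 bases and of all genes tested, in each library. In DF the histone and short-gene medians lie close. The histone median is higher in TF replicate 1 (0.40 against 0.29) and TF replicate 2 (0.63 against 0.31). It is level in TF replicate 3 (0.281 against 0.285) and lower in TFD replicate 2 (-0.60 against -0.04).

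Among genes for making and removing histone mRNA, Slbp fell in all 3 mutants. Slbp, whose product binds the stem-loop, measured 7.24, 7.38 and 7.26 log2 CPM in WT, and 6.67, 6.74 and 6.73 in DF. It measured 6.83, 6.85 and 6.95 in TF, and 6.68 and 6.82 in TFD. All 8 mutant libraries were below all 3 WT libraries, and Slbp fell by 0.58 on the log2 scale in DF, with an adjusted p of 0.000383. It fell by 0.42 in TF and 0.54 in TFD, where the adjusted p was 0.00348 and 0.00204. Of the 22 genes of this list 1 rose and 9 fell in DF, 1 rose and 7 fell in TF, and 0 rose and 7 fell in TFD. Of all genes tested 21%, 19% and 14.7% were called higher and 16.6%, 15.6% and 11.6% lower. The median of the list was -0.20, -0.18 and -0.22.

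Ccne1, the cyclin E gene whose kinase acts on the histone gene coactivator NPAT, had the largest fall of this list in TFD (-1.25, SE 0.24, adjusted p = 0.00229), and fell in DF by 1.66 and in TF by 1.08 on the log2 scale. Npat itself fell in TFD (-0.31, adjusted p = 0.0462), and had -0.22 in DF and -0.20 in TF, which were not called. Zcchc6, one of the uridylyltransferases that mark histone mRNA for decay, fell in all 3 mutants, by 0.42, 0.52 and 0.47. Lsm10, a subunit of the U7 particle that cuts histone pre-mRNA, was not called, with 0.39, 0.46 and -0.05. None of the 22 was called between mutants, where 0 to 1 had an unadjusted p under 0.05.

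Many genes of DNA replication were called lower than in WT, and few of mitosis. Of 39 replication genes 0 rose and 19 fell in DF, 1 rose and 10 fell in TF, and 0 rose and 16 fell in TFD, with medians of -0.31, -0.19 and -0.27. That is 48.7%, 25.6% and 41.0% called lower, against 16.6%, 15.6% and 11.6% of all genes. Orc1, of the origin recognition complex, fell by 1.12 in DF, 0.64 in TF and 0.88 in TFD on the log2 scale. Pcna, the sliding clamp, was called in TFD alone among the 3 comparisons with WT (-0.41, adjusted p = 0.0170), and had -0.10 in DF and 0.06 in TF. Of 21 mitosis genes 0 rose and 2 fell in DF, 1 rose and 1 fell in TF, and 0 rose and 3 fell in TFD, or 9.52%, 4.76% and 14.3% called lower, near or below the shares of all genes. Mki67, a marker of cycling cells, was not called in any of the 3, with -0.25, -0.29 and -0.43. Ccna2 fell in each, by 0.49, 0.35 and 0.48. Of 18 histone chaperones 0 rose in any comparison with WT, and 6, 4 and 3 fell (33.3%, 22.2% and 16.7%), among them Asf1a, which hands H3 and H4 to the assembly machinery, by 0.53, 0.56 and 0.78.

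Replication-independent histone variants included the largest rises of any histone gene. Of 11 genes, 5 rose in DF, 5 in TF and 4 in TFD and 0 fell, against the 21%, 19% and 14.7% of all genes called higher. H2afy2, which encodes a macroH2A, had 1, 0 and 4 counts in WT and 16 to 94 counts in the mutants. H1f0, the linker histone of non-dividing cells and named after its values were seen, measured 4.42, 3.46 and 4.07 log2 CPM in WT and 5.93 to 6.68 in the 8 mutant libraries. It rose by 2.30 on the log2 scale in DF, with an adjusted p of 1.92e-05. The rise was 2.35 in TF and 2.07 in TFD, where the adjusted p was 1.6e-05 and 8.49e-05. H1fx was not called in any of them (0.89, 0.81 and 1.53). None of the 11 was called between mutants, where 0 to 2 had an unadjusted p under 0.05.

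Genes that lie among the Hist1 genes but are no histone genes were also followed. Of 5 such genes, 3 rose in DF, 2 in TF and 1 in TFD and 0 fell, against 21%, 19% and 14.7% of all genes called higher. Zfp184, a zinc finger gene, rose by 1.13 on the log2 scale in DF (adjusted p = 0.0126). Its change in TF was 1.01 (adjusted p = 0.0242), and the 0.91 measured in TFD was not called. Prss16, a thymus-specific serine protease, was higher in DF than in WT (0.79, adjusted p = 0.00729) and than in TF (0.80, adjusted p = 0.0309).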

How the data were processed

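RNA-Seq libraries of BM were grouped by their labels (3 WT, 3 DF, 3 TF, 2 TFD). Per the study's methods, the authors aligned reads to mm10 with STAR, kept unique alignments, assigned them to refGene genes with featureCounts and kept genes above 0.5 CPM in more than 3 samples. Tool versions and strandedness are not given in the sources used here. The authors deposited raw counts, log2 CPM values (prior count 0.25, TMM factors, recomputed to within 5e-09) and gene lengths. Unique alignment discards reads that fit several histone copies equally.

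Counts of 12175 genes, after the same filter (24 removed), were tested with edgeR 4.0.16 in R 4.3.3: TMM factors (0.924 to 1.043), quasi-likelihood F test, 1 mean per genotype, Benjamini-Hochberg adjustment over all genes of a comparison, called under 0.05. Library totals were 8274153 to 15900904, and replicate number limits precision. Alternatives were DESeq2 1.42.0, library totals, RLE factors, no filter, only the groups compared, a loess (span 0.3) on length, the replicate block, a term for libraries above 10000 Xist counts, a fold of at least 1.2 and each library left out. The likelihood ratio test and limma voom (limma 3.58.1) were added after values were seen. The procedure was tested on simulated data. Sequences came from GENCODE M21 and RefSeq, where 51 of 57 promoters matched. Figures used matplotlib 3.10.9 in Python 3.11.15.

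The histone genes and lists were chosen with earlier results of these data known. Named genes are every H1, Hist2, Hist3 and Hist4 gene, the highest and lowest per kilobase and the extreme fold changes of each other class in TFD versus WT and TF versus TFD, those called between mutants, and in each other list the largest absolute change in those 2 comparisons, with Slbp, Npat, Pcna and Mki67. Not all are described, and other names were added after their values were seen.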

Additional observations from a re-analysis of the deposited data

Results flagged for a closer look

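Differences between mutant genotypes in their effect against WT, tested by edgeR's contrast of the 2 mutants, were found in 4 histone genes between DF and TF. The difference DF minus TF was -0.98 on the log2 scale for Hist1h2bl (adjusted p = 0.0335), -0.81 for Hist3h2a (adjusted p = 0.00736), -1.89 for Hist3h2ba (adjusted p = 0.000765) and -1.08 for Hist3h2bb-ps (adjusted p = 0.00239). For Hist3h2bb-ps alone TF also differed from TFD, by 1.55 (adjusted p = 0.00248). The DF versus TF calls of the 3 Hist3 genes were kept in every setting tried and with every single library left out. That of Hist1h2bl was lost when any of 5 libraries was left out (the 3 DF libraries, TF replicate 3 or WT replicate 2) and at a fold of at least 1.2. The Hist3h2bb-ps call in TF versus TFD was lost with only the groups compared.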

How the results depend on the processing

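The median over histone genes in TFD versus WT changed sign, from -0.16 to 0.22, without TFD replicate 2, and no call of a single gene changed direction under the alternatives recomputed. In what follows the share of all genes called in the same setting stands in parentheses. In DF versus WT the 5 genes called higher were 3 with library totals (15.8%), RLE factors (18.3%) or the Xist term (19.2%). They were 15 with only the groups compared (20.1%) and 10 with the likelihood ratio test (22%). They were 2 with the length loess (21.7%) or a fold of at least 1.2 (13%). The 3 called lower were 1 at a fold of at least 1.2 (11%). In TF versus WT the 18 higher were 29 with only the groups compared (17.6%) and 28 with the Xist term (20.3%). They were 4 with the length loess (17.5%) and 8 at a fold of at least 1.2 (12.8%). The length loess called 1 lower (15.7%). In TFD versus WT the 4 lower were 7 with DESeq2 (13.4%) and the length loess (12.1%) and 2 at a fold of at least 1.2 (7.58%). In DF versus TFD the 0 higher were 6 with DESeq2 (0.846%), 1 with only the groups compared (0.214%) and 5 with the likelihood ratio test (0.945%). In TF versus TFD the 1 higher was 16 with DESeq2 (0.895%) and 0 with only the groups compared (0%). It was 3 with the Xist term (0.148%) and 7 with the likelihood ratio test (0.493%). The length loess moved the median from 0.27 to 0.016 in DF and from 0.42 to 0.082 in TF versus WT. The cause of these shifts was not tested.

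With each library left out in turn, genes called higher ranged from 1 to 18 in DF, 6 to 35 in TF and 0 to 4 in TFD versus WT, 0 to 1 in DF versus TF, 0 to 25 in DF versus TFD and 1 to 23 in TF versus TFD. Genes called lower ranged from 1 to 4, 0 to 0 and 1 to 26 versus WT and from 3 to 6 in DF versus TF. With any library left out, TFD included, medians ranged from 0.22 to 0.30 in DF and 0.33 to 0.52 in TF versus WT. For TFD versus WT the range was -0.61 to 0.22. It was -0.24 to -0.03 in DF versus TF, 0.049 to 0.85 in DF versus TFD and 0.25 to 1.01 in TF versus TFD. The extremes of the TFD medians came from leaving out a TFD library. For DF versus WT 9 genes were called higher without TF replicate 3 and 1 without WT replicate 1. Where 1 TFD library remained, it was assumed to vary like the other groups.

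Nothing shows that replicate numbers pair the libraries, since same-numbered libraries correlated from -0.299 to 0.247 in their deviations. With the replicate block the calls versus WT were 5 higher and 3 lower in DF, against 20.7% and 16.2% of all genes. They were 17 and 0 in TF (18.8% and 15.4%) and 0 and 5 in TFD (12.9% and 9.5%). Between mutants 4 were lower in DF versus TF (3.71%) and 1 was higher in TF versus TFD (0.00821%).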
